A study of Mus musculus and Homo sapiens with 11 samples.

Results

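Genes that move, store and sense zinc, copper and iron were compared between a brain metastatic derivative of the mouse mammary tumour line MMTV-ErbB2, called BrM 2a and written BrM here, and the parental line. The members were chosen by symbol. They are the Slc30a and Slc39a zinc transporters, the metallothioneins Mt1 to Mt4 and the Steap family genes Steap1 to Steap4. The others are Mtf1, Tfrc, Slc11a2, Slc40a1, Fth1, Ftl1, Slc31a1, Slc31a2, Aco1 and Ireb2. In all 42 genes met the rule, of 24062 listed in the table. Polyadenylated RNA of 3 BrM and 3 parental libraries was sequenced. In both groups the tumour line carries ErbB2 (HER2, a growth factor receptor) under the promoter of the mouse mammary tumour virus, and cells of the series are described as cultured with serum. The labels give neither the mouse strain nor its age, and they do not say whether the derivative is a single clone or whether libraries of the same group are from separate cultures. The p-values are thus set against the scatter of libraries that may be technical replicates. A further 5 libraries of the human line HCC1954 were not analysed here.

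Metals reach the cytosol through a small set of membrane proteins. Zinc transporters of the Slc39a (ZIP) family carry zinc into the cytosol from outside the cell or out of organelles, and those of the Slc30a (ZnT) family carry it the other way. Metallothioneins are short cysteine-rich proteins that bind zinc and copper, and Mtf1 is the zinc-sensing transcription factor that switches on metallothionein genes and the zinc exporter gene Slc30a1. Iron bound to transferrin enters through the transferrin receptor Tfrc, is reduced in endosomes by Steap proteins and leaves the endosome through Slc11a2 (DMT1). It is stored in ferritin, made of Fth1 and Ftl1 chains, and exported by Slc40a1 (ferroportin). The RNA-binding proteins encoded by Aco1 and Ireb2 adjust Tfrc and ferritin output to the iron supply. Copper enters through Slc31a1 (CTR1).

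Slc30a1 is a well known target of Mtf1, and Slc30a5 is a zinc transporter that fell in the derivative. Their upstream sequences are shown because the metal response element, the short motif bound by Mtf1, has a match in each, and the values of both genes are given below. The sequences are from RefSeq (GRCm38.p6) and cover the 250 bases before the annotated start, 5′ to 3′ on the strand of the gene. They span chr1:191906531-191906780 on the plus strand for Slc30a1 and chr13:100833428-100833677 on the minus strand for Slc30a5. The core was searched as TGCACNC or TGCGCNC on both strands. Capitals mark the match, which lies on the reverse strand in both.
Slc30a1: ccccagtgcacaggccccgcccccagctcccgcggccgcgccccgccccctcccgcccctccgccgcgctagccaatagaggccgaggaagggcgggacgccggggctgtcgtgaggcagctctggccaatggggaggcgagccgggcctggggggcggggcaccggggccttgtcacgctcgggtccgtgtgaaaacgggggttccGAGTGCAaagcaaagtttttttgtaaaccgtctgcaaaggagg
Slc30a5: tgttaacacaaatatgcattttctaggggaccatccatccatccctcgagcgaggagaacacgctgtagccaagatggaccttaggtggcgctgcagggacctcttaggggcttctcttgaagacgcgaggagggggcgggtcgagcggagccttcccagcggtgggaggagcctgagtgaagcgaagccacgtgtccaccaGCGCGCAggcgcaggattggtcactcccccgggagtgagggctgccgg
At least 1 match was present in 21.4% of all 32851 windows of this length. Of the 42 members, 36 had a window, and 18 of their 48 windows held a match, or 37.5%. Matches were present in some genes that fell, in 1 that rose and in some that did not pass. Whether they go with the changes was not tested. Of other genes that fell, Mt2 had 3 matches and Slc31a2 had 1. Slc30a7, Slc39a1, Slc39a7, Steap3, Steap4 and Slc31a1 fell with 0, and Slc11a2 and Slc39a14 had no window. Of the genes that rose, Slc30a2 had 2 and Slc39a9 had 0. Among those that did not pass, Slc30a4 had 2 and Slc39a3 had 1, while Mtf1, Aco1 and Ireb2 had 0. Windows of 1 gene can overlap, no printed matches overlap, and a match describes the letters and is not a binding site.

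Values are scaled read counts as deposited, and means are given ± SD over n = 3 libraries in each group. Reads assigned to genes numbered 29877087 to 39106969 in BrM and 39304974 to 46683735 in parental libraries. Library numbers are those of the table's header. BrM replicate 1 stood apart from BrM replicates 2 and 3: of 13821 genes tested, 23.3% were at least 2-fold above or below both of them, on the value plus 1. The labels name 2 library kits and 2 media without assigning them, so a kit or medium difference cannot be told apart from one between the lines. Among the defining epithelial markers Epcam, Cdh1, Krt8 and Krt18 were abundant in all 6 libraries, with a summed level over the 6 listed genes of 138668 to 153334 in BrM and 88708 to 100349 in parental libraries, and with Krt7 at 0 in the parental line. Of the 5 tested, Krt8 and Krt18 were higher and Cdh1 and Krt19 lower in BrM, Krt19 with a mean of 14.8 ± 13.1 in BrM against 2131 ± 1477 in the parental line (adjusted p = 0.00256). Fibroblast and pericyte markers were lower in BrM for 4 of 6 tested, beside 15.8% of all genes tested, and higher for 0. Their sum was 224 to 1112 in BrM, with Dcn, Lum and Thy1 at 0, against 4647 to 16105 in parental libraries, with Lum at 0. Most of the parental sum came from Postn and Pdgfrb, with parental means of 7770 and 2483. Thy1 and Fap had only 3 and 8 reads in the parental libraries, and Col1a1 and Pdgfra did not pass. For leukocyte markers the sum was 449 to 3000.4 in BrM and 219 to 598 in parental libraries, with Cd3e at 0 in the parental line. Of the 2 leukocyte markers tested, Csf1r was higher in BrM, with a mean of 268 ± 45.7 in BrM against 7.52 ± 9.84 in the parental line (adjusted p = 0.0037), and Cd68 did not pass. Hemoglobin genes Hba-a1 and Hbb-bt had no read in any library. The part of such markers in the results was not tested. In bulk RNA, fewer cells of a type and less RNA per cell cannot be told apart.

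Of the 42 members, 35 averaged 10 or more across the 6 libraries and were tested. Most of those that changed were lower in the derivative: 11 fell, 2 rose and 22 did not pass. The test was limma on log2 of the value plus 1, with Benjamini-Hochberg adjustment over all 13821 genes and a threshold of 0.05, and all adjusted p-values below come from it unless another tool is named. The largest falls were in the metalloreductase Steap4 and the metallothionein Mt2, and the zinc exporter Slc30a2, barely detected in the parental line, rose. Over all genes tested the test called 28.1%, with 12.2% higher and 15.8% lower, and for the members it called 13 of 35, or 37.1%. The median log2 fold change was -0.42 over the tested members and -0.05 over all genes tested. Libraries of the 2 groups did not overlap for 23 of the 35, beside 48.0% of all genes. The number of members called fell to 6 on leaving out BrM replicate 2, BrM replicate 3 or parental replicate 1, and to 7 on leaving out parental replicate 2. It was 9 without parental replicate 3 and 16 without BrM replicate 1. Rescaling libraries to a common median shifted the median of all genes up by 0.12 on the log2 scale. The called genes then split into 54.1% higher, against 43.6% as deposited, and the members into 3 higher and 9 lower.

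**Figure D1:**
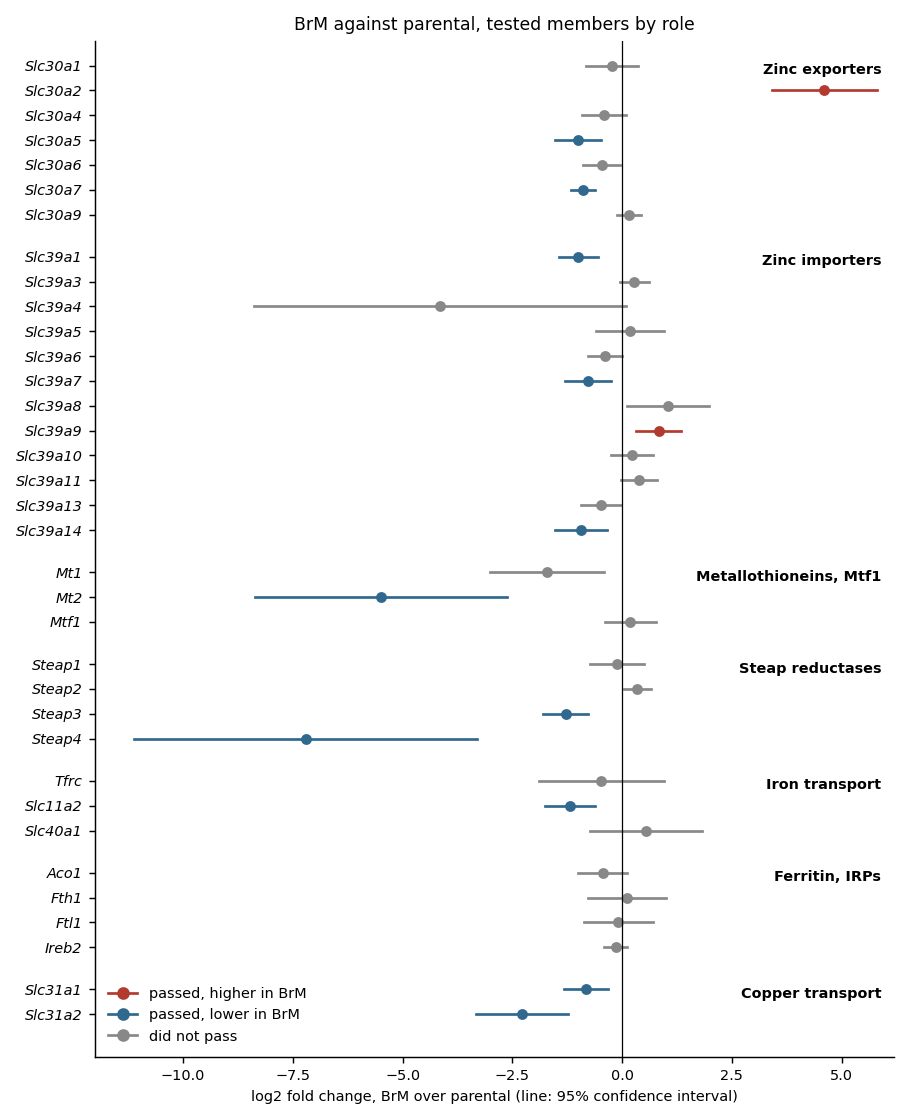
Log2 fold change of BrM over parental for the 35 tested members, grouped by role, with 95% confidence intervals from limma. Red marks the 2 members that passed as higher, blue the 11 that passed as lower and grey the 22 that did not pass.

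Of the metallothioneins Mt2 fell in the derivative, and Mt1 was below the parental line in all BrM libraries without passing the test. Mt1 to Mt4 lie in 1 cluster on chromosome 8 in the GRCm38 build, with Mt2 at chr8:94172664-94173568 and Mt1 at chr8:94179082-94180327, and the upstream window held 3 matches to the metal response element for Mt2 and 1 for Mt1. Mt2 stood at 100.1, 8.61 and 5.59 in BrM replicates 1, 2 and 3, against 2480.0, 737 and 314 in parental replicates 1, 2 and 3. Every BrM library lay below every parental one, and BrM replicate 1 was the highest of its group. The log2 fold change was -5.49 (SE 1.20, 95% interval -8.36 to -2.61, adjusted p = 0.0173), a 44.9-fold fall. From pooled reads, 97 in BrM against 3665 in the parental line, Mt2 was 34.1-fold lower (exact 95% interval 27.9 to 42.2, counting error only). Mt2 lost its call without BrM replicate 2 or 3 or parental replicate 1 or 2 (adjusted p 0.0534 to 0.0639). Leaving out BrM replicate 1 made the fall 105-fold and leaving out BrM replicate 3 made it 26.7-fold. Leaving out parental replicate 1 made it 26.0-fold, and parental replicate 3, 72.9-fold. Mt1 was at 1030.2, 903 and 759 in BrM and at 6367, 3063 and 1286 in parental libraries. The groups did not overlap here either, but the parental libraries ranged widely and Mt1 did not pass (log2 fold change -1.72, 95% interval -3.02 to -0.41, adjusted p = 0.0579). Mt1 was 3.29-fold lower in all and 4.96-fold lower without parental replicate 3, where it passed (adjusted p = 0.0116). With all libraries it also passed on recovered reads, with edgeR (adjusted p = 0.0389) and with DESeq2 (adjusted p = 0.00139).

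Relative to Mt1, the groups did not overlap in Mt2 either. Mt2 amounted to 9.72%, 0.953% and 0.736% of the Mt1 value in BrM replicates 1, 2 and 3, against 38.9%, 24.1% and 24.4% in parental replicates 1, 2 and 3. The mean was 3.80% ± 5.12 in BrM and 29.2% ± 8.48 in the parental line (SD, n = 3 each, exact two-sided permutation p = 0.1, the smallest this design allows). Mt3, a metallothionein best known from brain, had 1 read in BrM and 4 in the parental libraries, and Mt4, known from stratified epithelia, had none in any library. The zinc sensor Mtf1 averaged 598 ± 151 in BrM libraries and 516 ± 63.6 in parental ones, which did not pass (log2 fold change 0.19, 95% interval -0.40 to 0.77, adjusted p = 0.606). Slc30a1, the plasma membrane zinc exporter and the Mtf1 target shown above, averaged 465 ± 19.8 in BrM and 560.1 ± 149.9 in parental libraries (log2 fold change -0.23, 95% interval -0.82 to 0.37, adjusted p = 0.53). Its BrM values of 443 to 482 lay within the parental range of 387 to 650.3. Exons of Mtf1 and Slc30a1 overlap other genes on the opposite strand.

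**Figure D2:**
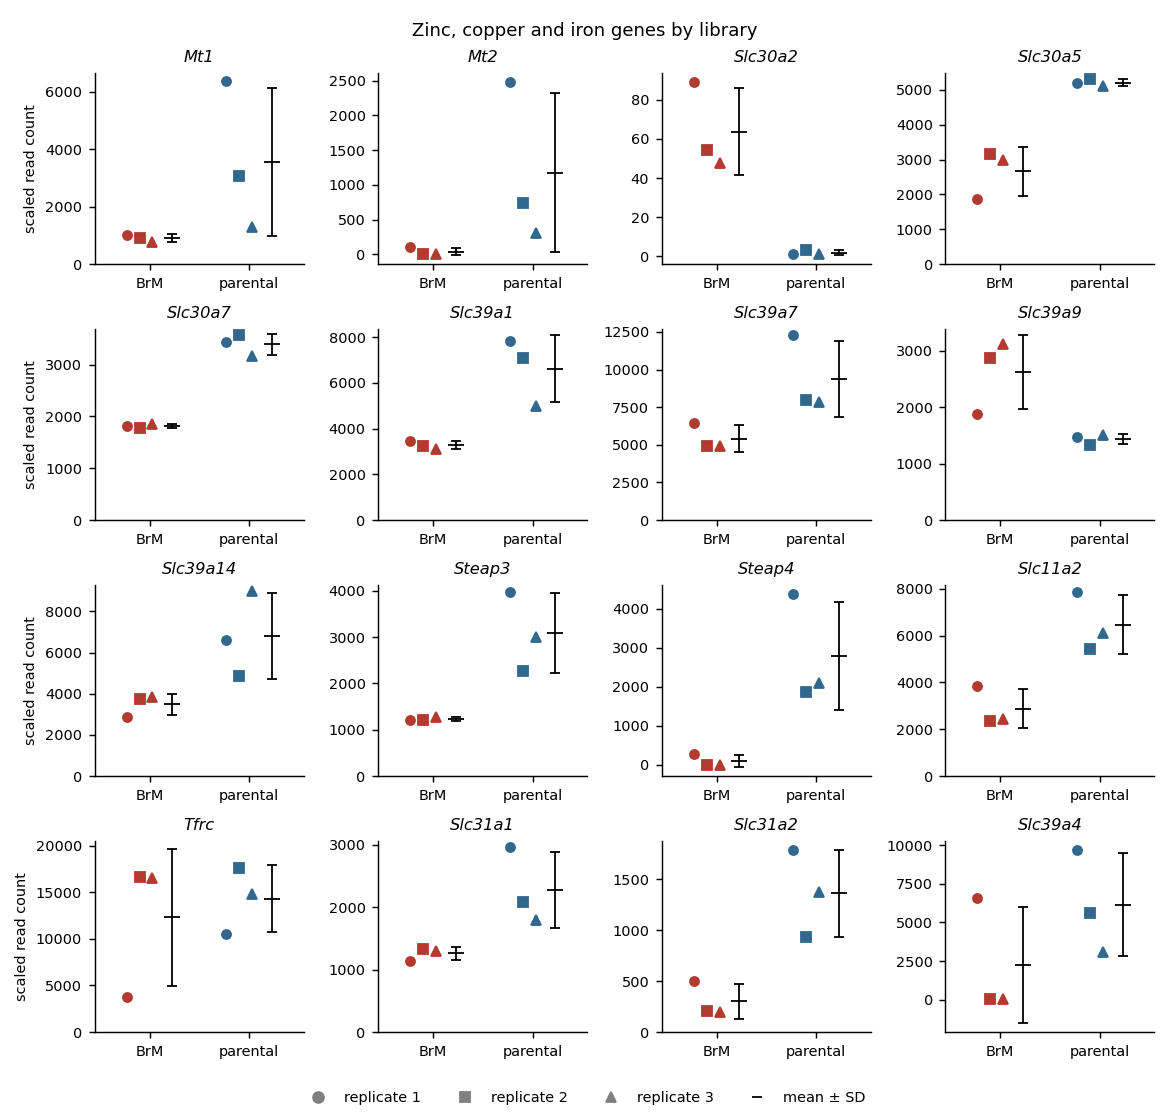
Scaled read counts of 16 members in each library, BrM left of parental, with markers for replicates 1 to 3 and the mean ± SD beside them. Mt2 and Steap4 are near 0 in BrM replicates 2 and 3, Slc30a2 is seen almost only in BrM, and Tfrc and Slc39a4 in BrM replicate 1 lie far from the other BrM libraries.

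Among zinc exporters 1 rose and 2 fell of 7 tested, and 4 did not pass. Over all genes tested 12.2% were higher and 15.8% lower. Slc30a2 (ZnT2), which loads zinc into vesicles and is needed for the zinc of milk, rose in the derivative. Its values were 89.1, 54.5 and 47.5 in BrM and 1.02, 3.29 and 0.944 in parental libraries. All BrM libraries were far above the parental ones, where only 6 reads were counted in all, and the level remained low in BrM. The log2 fold change was 4.60 (SE 0.50, adjusted p = 0.00141), and pooled reads gave a 33.4-fold difference (exact 95% interval 15.1 to 92.3, counting error only). The transporters that fell feed zinc to the secretory pathway. Slc30a5 (ZnT5) was at 1854, 3149 and 2976 in BrM and at 5184, 5301 and 5112 in the parental line, a 2.01-fold fall (95% interval of the log2 fold change -1.52 to -0.49, adjusted p = 0.0163). It lost the call without any 1 of the parental libraries (adjusted p 0.0512 to 0.0639). Slc30a7 (ZnT7) was the steadier of the pair, at 1818, 1768 and 1857 in BrM and 3439.7, 3561 and 3171 in the parental line. It fell 1.87-fold (log2 fold change -0.90, SE 0.11, adjusted p = 0.0025) and passed under all 19 alternatives tried.

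Slc30a6 (ZnT6), which works as a dimer with ZnT5, averaged 628 ± 54.1 in BrM libraries and 870.5 ± 117 in parental ones and missed the threshold (adjusted p = 0.0941), although its groups did not overlap. Slc30a4 (ZnT4), another vesicular transporter, averaged 4153 ± 748 in BrM and 5567 ± 1229.5 in the parental line (adjusted p = 0.19). Slc30a9 averaged 5078 ± 357 in BrM and 4559 ± 174 in the parental line (adjusted p = 0.353). The exporters absent from the test were barely detected: Slc30a3 had 1 read in BrM and 14 in the parental libraries, Slc30a8 had 6 in BrM and 4 in the parental libraries, and Slc30a10 had 3 in BrM and 1 in the parental libraries. Per kilobase of annotated exon, Slc30a4 had the highest level of the family in both lines, at 758 in BrM and 1016 in the parental line. Slc30a2 reached only 17.9 per kilobase in BrM, against 0.492 in the parental line.

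Of the 12 zinc importers tested, 1 rose and 3 fell, beside 12.2% higher and 15.8% lower over all genes tested. Those that fell were Slc39a1, Slc39a7 and Slc39a14. Slc39a1 (ZIP1), a zinc importer of the plasma membrane, was at 3457, 3230.0 and 3113 in BrM and at 7825, 7071 and 4981 in the parental line. The BrM libraries lay close together below all parental ones, and the fall was 1.99-fold (95% interval of the log2 fold change -1.45 to -0.55, adjusted p = 0.0105). Slc39a7 (ZIP7), which releases zinc from the endoplasmic reticulum, was at 6419.5, 4921 and 4915 in BrM and at 12296, 7991 and 7818 in parental libraries. It fell 1.70-fold (log2 fold change -0.77, SE 0.22, adjusted p = 0.042) and kept the call when BrM replicate 1 was left out but not when any other library was (adjusted p 0.0595 to 0.131). Slc39a14 (ZIP14), which carries zinc, manganese and iron not bound to transferrin, was at 2894, 3737 and 3836 in BrM and at 6600.5, 4839 and 8973 in the parental line. The groups stood apart, with a fall of 1.90-fold (log2 fold change -0.93, SE 0.25, adjusted p = 0.0337). That call was lost without BrM replicate 2 or 3 or parental replicate 1 or 3 (adjusted p 0.071 to 0.0991). Both Slc39a7 and Slc39a14 also lost it with libraries rescaled to a common median (adjusted p = 0.0704 and 0.0528).

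Slc39a9 (ZIP9), which is found at the Golgi and plasma membrane, was the importer that rose. It stood at 1882, 2873 and 3122 in BrM and at 1479.7, 1337 and 1506 in the parental line. All BrM libraries were above the parental ones, BrM replicate 1 least, and the rise was 1.78-fold (log2 fold change 0.83, SE 0.21, adjusted p = 0.0293). The call held when BrM replicate 1 was left out and was lost when any of the other 5 libraries was (adjusted p 0.0727 to 0.104). Exons of Slc39a9 overlap those of Erh on the other strand, and whether reads were counted by strand is not given in the sources used here. Erh was at 6687, 11757 and 10846 in BrM and at 3379.6, 4119 and 3539.9 in the parental line, higher in the same libraries as Slc39a9, and the part of Erh reads in the result was not tested.

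Slc39a4 (ZIP4), the zinc importer that is essential for zinc uptake in the gut, divided the BrM libraries. It was at 6595 in BrM replicate 1 and at 76.5 and 58.7 in BrM replicates 2 and 3, against 9700.3, 5635 and 3105 in the parental line. BrM replicate 1 lay inside the parental range and the other BrM libraries far below it. The gene did not pass (log2 fold change -4.15, 95% interval -8.39 to 0.09, adjusted p = 0.129), and without BrM replicate 1 it passed as lower (log2 fold change -6.35, adjusted p = 0.000226). Without BrM replicate 2 it was 8.83-fold lower and without BrM replicate 3 it was 7.74-fold lower (adjusted p = 0.305 in each case). On recovered reads the log2 fold change was -1.47 with edgeR (adjusted p = 0.551) and -1.42 with DESeq2 (adjusted p = 0.569). Slc39a8 (ZIP8), the close relative of ZIP14, differed among them the other way, at 389, 891 and 915 in BrM against 247, 376 and 390.0 in the parental line. It did not pass (log2 fold change 1.04, 95% interval 0.11 to 1.97, adjusted p = 0.093) and passed as higher without BrM replicate 1 (log2 fold change 1.44, adjusted p = 0.00415). With all libraries it passed as higher with DESeq2 (adjusted p = 0.0183) and not with edgeR (adjusted p = 0.0768). Slc39a10 (ZIP10), a plasma membrane importer, passed as higher without the same library (adjusted p = 0.0488) and not with it (adjusted p = 0.454).

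The remaining importers did not pass. Slc39a3 and Slc39a11 were above all parental libraries in all BrM libraries. Slc39a3 averaged 1112 ± 27.2 in BrM and 917 ± 81.4 in the parental line (adjusted p = 0.187), and Slc39a11 averaged 1654 ± 148 in BrM and 1277 ± 213 in the parental line (adjusted p = 0.142). Slc39a6 and Slc39a13 were below all parental libraries in all BrM libraries. Slc39a6 averaged 1520.1 ± 191 in BrM and 2003 ± 247 in the parental line (adjusted p = 0.113). Slc39a13, whose exons overlap Psmc3 on the other strand, averaged 2432 ± 77.6 in BrM and 3467 ± 896 in the parental line (adjusted p = 0.108). Slc39a5 was low in both lines, at 32.1 ± 6.45 in BrM and 27.7 ± 0.594 in the parental line (adjusted p = 0.699). Slc39a2 and Slc39a12 were below the filter, Slc39a2 with 29 reads in each group and Slc39a12 with 2 in each. Per kilobase of exon Slc39a7 was the most abundant importer in both lines, at 2097 in BrM and 3626 in the parental line. Slc39a1 was next, at 1382 in BrM and 2803 in the parental line.

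Of the Steap family, whose metalloreductases reduce iron and copper so that transporters can move them, 2 of 4 genes fell and none rose. The share lower over all genes tested was 15.8%. Steap4, an inducible member of the family, had the largest fall among the members by limma, while Mt2 had a slightly larger one by pooled reads, edgeR and DESeq2. It was at 277, 1.91 and 5.59 in BrM and at 4386, 1871 and 2107 in the parental line. BrM replicate 1 held most of the 235 BrM reads, and still lay far below the parental libraries. The log2 fold change was -7.21 (SE 1.62, 95% interval -11.11 to -3.31, adjusted p = 0.0193), or 148-fold, while pooled reads gave a 33.8-fold fall (exact 95% interval 29.7 to 38.7, counting error only). Steap4 did not pass with edgeR (adjusted p = 0.0628), or when any of the 5 libraries besides BrM replicate 1 was left out (adjusted p 0.0515 to 0.0752). Steap4 was 590.4-fold lower without BrM replicate 1, 60.4-fold lower without BrM replicate 2 and 90.9-fold lower without BrM replicate 3.

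Steap3, the ferrireductase of endosomes, fell 2.43-fold and evenly in all BrM libraries. It was at 1205, 1221 and 1285 in BrM and at 3983, 2279 and 3002 in parental libraries (log2 fold change -1.28, SE 0.21, adjusted p = 0.00674), and it passed under all 19 alternatives. Steap1 averaged 1179.9 ± 261 in BrM and 1287 ± 328 in the parental line (adjusted p = 0.761), and Steap2 averaged 7309.6 ± 404 in BrM and 5765 ± 681 in the parental line (adjusted p = 0.0935). Steap2 passed as higher with libraries rescaled to a common median (adjusted p = 0.0413). Per kilobase of exon Steap4 was at 30.1 and Steap1 at 857 in BrM, while in the parental line they lay close together, at 884 for Steap4 and 935 for Steap1.

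Of 3 iron transport genes, 1 fell and 2 did not pass, beside 15.8% of all genes tested that were called lower. Slc11a2, the endosomal iron transporter, was at 3844, 2342 and 2450.3 in BrM and at 7868, 5431 and 6126 in the parental line. All BrM libraries were below the parental ones, and the fall was 2.28-fold (log2 fold change -1.19, SE 0.24, adjusted p = 0.0131). It narrowly lost the call without BrM replicate 2 or 3 (adjusted p = 0.0504 and 0.05), and its exons overlap Gm5475 on the other strand. The receptor Tfrc was at 3768, 16592 and 16539 in BrM and at 10533, 17584 and 14865 in the parental line. BrM replicate 1 was the lowest of the 6 libraries, and BrM replicates 2 and 3 lay within the parental range. Tfrc did not pass (log2 fold change -0.47, 95% interval -1.89 to 0.95, adjusted p = 0.591), and its log2 fold change was 0.24 without BrM replicate 1. The iron exporter Slc40a1 went the other way in the same library, at 908, 271 and 278 in BrM and 299, 384 and 195 in parental libraries (log2 fold change 0.54, 95% interval -0.74 to 1.81, adjusted p = 0.493).

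None of the 4 ferritin and iron regulatory protein genes passed. Fth1 was at 119798, 71112 and 59089.9 in BrM and at 114368, 58856 and 59299 in the parental line, with replicate 1 the highest of each group. Ftl1 was at 46818, 34173 and 32185 in BrM and at 58752, 40681 and 25616 in the parental line. The groups overlapped for both, and the log2 fold changes were 0.11 (95% interval -0.78 to 1.00) for Fth1 and -0.08 (95% interval -0.86 to 0.70) for Ftl1. Both ferritin genes have processed pseudogenes in the mouse that may take or give reads, so their levels are uncertain. Per kilobase of exon they were the most abundant members, Ftl1 at 28153 in BrM and 31107 in the parental line and Fth1 at 24022 in BrM and 22343 in the parental line. Aco1, which encodes the iron regulatory protein that also serves as cytosolic aconitase, averaged 2348 ± 669 in BrM and 3090.2 ± 140.1 in the parental line (adjusted p = 0.209). Ireb2, for the other such protein, averaged 5533 ± 102 in BrM and 6109 ± 387 in parental libraries (log2 fold change -0.14, 95% interval -0.40 to 0.12, adjusted p = 0.38).

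Both copper transporters fell, beside 15.8% of all genes tested that were called lower. Slc31a1, the high-affinity copper importer, was at 1143, 1332 and 1303 in BrM and at 2964, 2076 and 1791 in the parental line. The groups did not overlap, and the fall was 1.77-fold (log2 fold change -0.82, SE 0.21, adjusted p = 0.0294). It lost the call without BrM replicate 2 or 3 or parental replicate 1 or 2 (adjusted p 0.0583 to 0.0799). Slc31a2 (CTR2), a relative found on endosomes and lysosomes, was at 503, 204 and 194 in BrM and at 1784, 932 and 1370.0 in the parental line. All BrM libraries were below the parental ones, with BrM replicate 1 nearest to them. The fall was 4.84-fold (log2 fold change -2.28, SE 0.43, adjusted p = 0.0109) and passed under all 19 alternatives. The genes lie close together on chromosome 4 in GRCm38, with Slc31a2 at chr4:62262562-62298411 and Slc31a1 at chr4:62360727-62391769. The heme enzyme gene Alad, nearby at chr4:62509169-62519918, rose 2.25-fold, and the part of position in these changes was not tested.

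BrM replicate 1 was at least 2-fold from both other BrM libraries for 7 of the 35 tested members, beside 23.3% of all genes tested. It was above them for 5, Slc39a4, Steap4, Mt2, Slc40a1 and Slc31a2, beside 14.7% of all genes. It was below them for 2, Tfrc and Slc39a8, beside 8.58% of all genes. Against the mean of BrM replicates 2 and 3, on the value plus 1, BrM replicate 1 was 96.2-fold higher for Slc39a4, 58.5-fold for Steap4, 12.5-fold for Mt2, 3.30-fold for Slc40a1 and 2.52-fold for Slc31a2. It was 4.40-fold lower for Tfrc and 2.32-fold lower for Slc39a8. These are single-library values with no test.

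**Figure D3:**
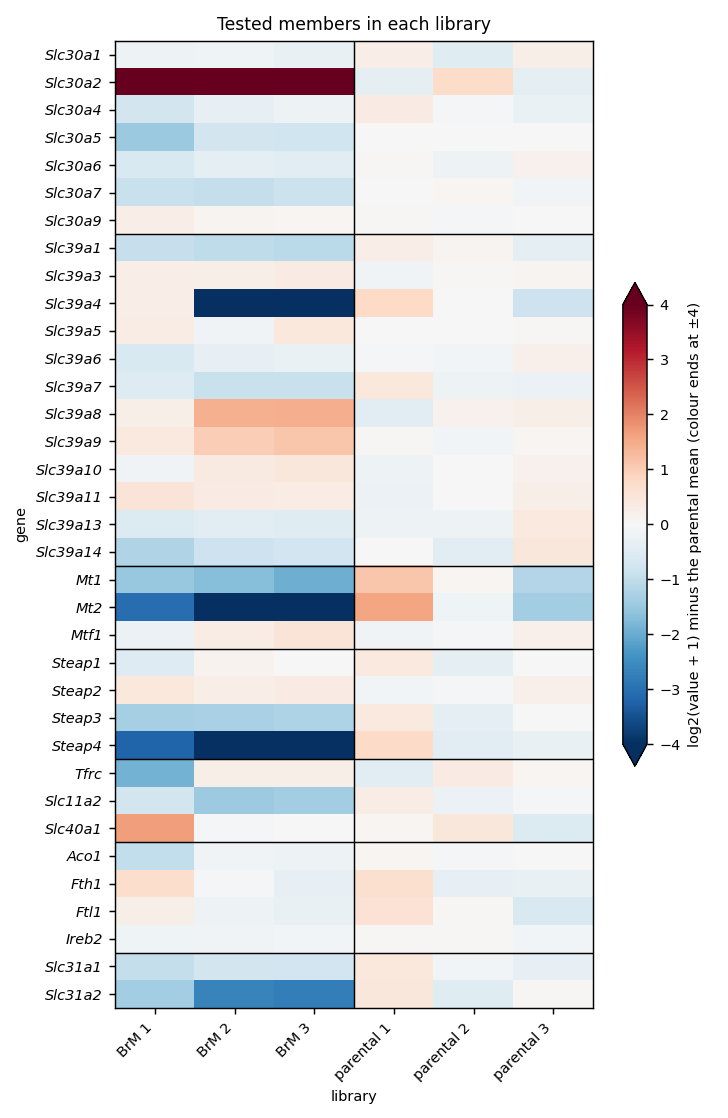
Log2 of the value plus 1, minus the parental mean, for the 35 tested members (rows, grouped by role) in the 6 libraries (columns, BrM left). Steap3, Slc30a7, Slc39a1 and Slc31a1 are lower in all 3 BrM libraries, while Slc39a4, Tfrc and Slc40a1 differ between BrM replicate 1 and BrM replicates 2 and 3.

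Other genes of the same pathways were taken from lists. Of 19 tested iron partners, 0 rose, 3 fell and 16 did not pass, with a median log2 fold change of -0.04. The share lower was 15.8%, the same as the 15.8% of all genes tested. Among those that did not pass, Lcn2 was at 108384, 691 and 624 in BrM and at 383422, 152314 and 158860 in the parental line. Its groups did not overlap, and it was 58.3-fold lower (adjusted p = 0.0673). Trf was 4.35-fold lower with overlapping groups (adjusted p = 0.0976), and Hmox1 was 1.91-fold higher (adjusted p = 0.192). The 3 that fell were ceruloplasmin (Cp) and hephaestin (Heph), copper-containing ferroxidases that oxidise exported iron, and Hfe, which binds the transferrin receptor. Cp was at 14509, 4054 and 4278 in BrM and at 91155, 53197 and 67642 in the parental line. The fall was 10.9-fold (log2 fold change -3.45, SE 0.51, adjusted p = 0.0044), and 16.6-fold without BrM replicate 1. Heph had no read in any BrM library and stood at 79.4, 152 and 24.5 in the parental line, so it was lower by a factor of at least 86.9, taking 3 pooled BrM reads as the floor (adjusted p = 0.00171). Its fitted log2 fold change of -6.09, which is no bound, was -5.50 without parental replicate 2 and -6.79 without parental replicate 3. Hfe was at 106, 64.1 and 64.3 in BrM and at 286, 423 and 155 in the parental line, a 3.47-fold fall (adjusted p = 0.0246). Its call was lost without BrM replicate 2 or 3 or parental replicate 1 or 2 (adjusted p 0.082 to 0.0853). The drop in fibroblast and pericyte markers described above ran along with these falls, and its part in them was not tested. Exons of Cp overlap Hps3, and those of Heph overlap Hsf3, on the other strand.

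Of 12 tested copper partners, 0 rose, 1 fell and 11 did not pass (median log2 fold change 0.12). The share called was 8.33%, beside 28.1% of all genes tested. Atp7a, the copper pump of the trans-Golgi, was at 1706, 1239 and 1289 in BrM and at 2402, 2134 and 2319.9 in the parental line, a 1.63-fold fall (adjusted p = 0.0215). Its groups stood apart, and the call was lost on leaving out any of the 5 libraries besides BrM replicate 1 (adjusted p 0.0608 to 0.0854). Enzymes of heme and iron-sulphur cluster synthesis moved in both directions: 4 rose, 1 fell and 8 did not pass of 13 (median log2 fold change 0.10). The share called was 38.5%, beside 28.1% of all genes. Alad, an early heme enzyme, was at 3994, 3744 and 3546 in BrM and at 1813, 1607 and 1592 in the parental line, a 2.25-fold rise (adjusted p = 0.00125). Cpox, a later heme enzyme, was at 4300.4, 4864 and 4709 in BrM and at 2459.7, 2887 and 2532 in the parental line, a 1.76-fold rise (adjusted p = 0.00467), and its exons overlap Gpr15 on the other strand. The heme enzymes Alad and Cpox were thus higher in every BrM library, by less than 3-fold. Glrx5, which passes iron-sulphur clusters on in mitochondria, rose 2.38-fold (2501, 3451 and 3003 in BrM against 1225, 1229 and 1273 in the parental line, adjusted p = 0.0022). Of a pair that works in iron-sulphur cluster assembly, Isca1 fell 1.72-fold (1762 ± 269 in BrM against 3015 ± 234 in the parental line, adjusted p = 0.0132). Isca2 rose 1.84-fold (702 ± 176 in BrM against 375 ± 37.2 in the parental line, adjusted p = 0.0311). Isca1 lost its call without parental replicate 1 or 2 (adjusted p = 0.052 and 0.0582), and its exons overlap Etohd2 on the other strand. Isca2 was named after its values were seen.

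**Figure D4:**
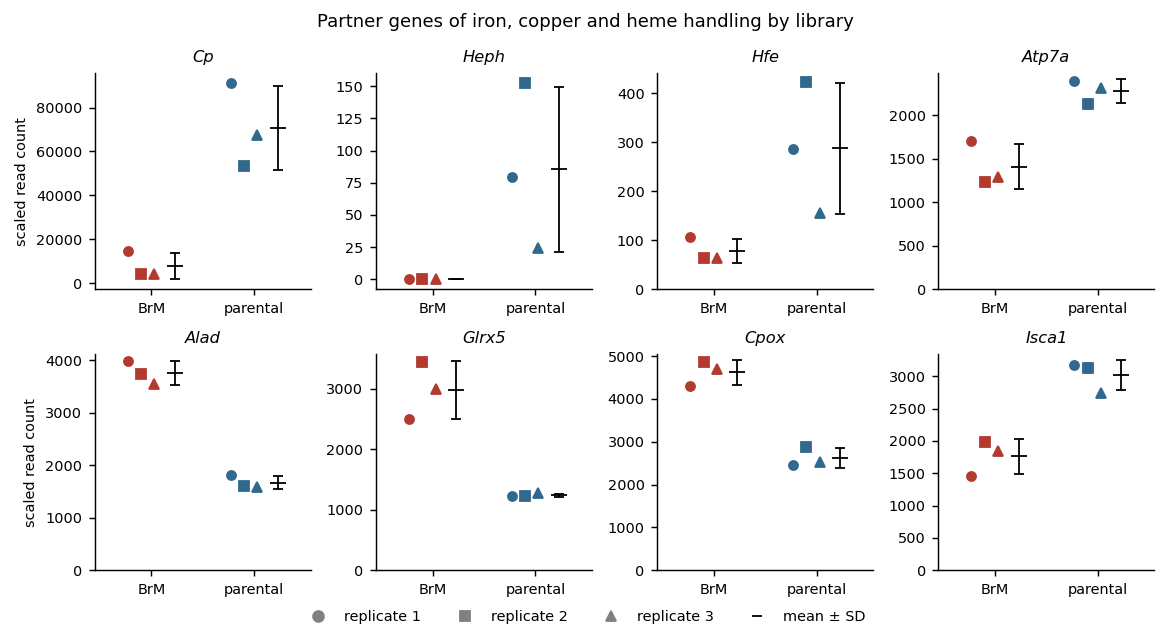
Scaled read counts of 8 called partner genes in each library, BrM left of parental, with the mean ± SD. Cp, Heph, Hfe, Atp7a and Isca1 are lower and Alad, Glrx5 and Cpox higher in all 3 BrM libraries.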

How the data were processed

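Expression was analysed in 6 libraries of mouse MMTV-ErbB2 cells. The deposited signal values were read counts scaled by the authors; the submitters' processing notes name STAR and HTSeq, and the builds are GRCm38 and GRCh38. The scaling tool, annotation and strand setting are not given in the sources used here. Within 0.01 read, 100% of the values above 0 in each library came out as a whole number of reads, so reads were recovered. Table columns were assigned to groups by name; titles and header number the libraries differently. Genes with a mean of at least 10 were tested by two-sided limma tests (limma 3.58.1, R 4.3.3) with an intensity trend and group alone; the pseudocount was 1. Fold changes on that scale understate low genes. Members and lists were chosen with earlier results of these data known. The named genes are all members and, per other list, up to 4 called genes with the smallest p-values. Besides cell type markers, Isca2, Lcn2, Trf, Hmox1 and Erh were named outside this rule. Alternatives were other pseudocounts, filters, scalings, moderation and weights, edgeR 4.0.16 and DESeq2 1.42.0 on recovered reads, each library left out, BrM replicates 2 and 3 averaged, and a replicate block added after seeing the data. Methods were tested on simulated data with the same dispersion for all genes and no outlying library. The simulation thus does not cover a library that stands apart as BrM replicate 1 does. Positions, exon lengths and overlaps came from GENCODE M21 (GRCm38). Intervals of pooled reads and the floors cover counting error only. Intervals of log2 fold changes are from limma and rest on the scatter of libraries. The listed genes Flvcr1 and Adgre1 were not analysed here. Figures used matplotlib 3.10.9 under Python 3.11.15.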

Additional observations from a re-analysis of the deposited data

How the results depend on the processing

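Of the 13 called members, 5 (Slc30a2, Slc30a7, Slc31a2, Slc39a1 and Steap3) passed under every alternative that tested them, 8 lost the call under at least 1, and 0 changed direction. Of the 22 that did not pass, 10 passed under at least 1 alternative. The 13 calls became 22 with array weights (8 higher) and 7 with BrM replicates 2 and 3 averaged (1 higher, 6 lower); DESeq2 gave 4 higher and a minimum mean of 50 gave 1 higher. Leaving out 1 library gave 6 to 16 calls, 1 to 4 higher and 5 to 12 lower. edgeR called 13 members, 12 of them shared with limma. Over all genes the 3881 calls became 8485 with array weights, 2279 with BrM replicates 2 and 3 averaged and 2191 to 6519 without 1 library.

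Directions of 5 members that did not pass turned, and the cause was not tested. Log2 fold changes were -0.047 for Fth1, -0.21 for Slc40a1, 0.21 for Steap1 and 0.093 for Tfrc with array weights, and 0.038 for Ftl1 and 0.00060 for Steap1 with median scaling. Without 1 library they spanned -0.18 to 0.43 for Fth1, -0.39 to 0.20 for Ftl1, -0.039 to 0.83 for Slc40a1, -0.30 to 0.073 for Steap1 and -0.83 to 0.24 for Tfrc.

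A replicate block by header number gave 15 called members and 4040 called genes. Mt1 and Slc39a8 passed under it (adjusted p = 0.0257 for each). The correlation of deviations between same-numbered libraries was 0.30, -0.09 and 0.33 for numbers 1, 2 and 3. BrM replicates 1 and 3 correlated best with the parental library of the same number. BrM replicate 2 correlated best with parental replicate 3 (0.31), much as BrM replicate 3 did. Deviations were taken from the mean of each group, so the correlations are not independent and cannot show pairing by themselves. Whether same-numbered libraries share a batch was not tested. A block by the number in the titles and a term for numbered libraries were not run, because titles and header number the libraries differently. With 3 libraries a group, genes with few reads, such as Slc30a2 in the parental line, are limited by counting.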
